A study of Mus musculus with 10 samples.

Results

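The JmjC histone lysine demethylases are enzymes that remove methyl groups from lysines of histone tails, and 10 of their genes were followed here by symbol: Kdm2a, Kdm2b, Kdm3a, Kdm3b, Kdm4a, Kdm4b, Kdm4c, Kdm5a, Kdm5b and Kdm6b. All 10 were found among the 55367 genes of the deposited table, and all 10 were among the 15126 genes that passed the filter on low counts. RNA came from mouse bone marrow cells with the sample label BMMC, in a study of myeloproliferative neoplasms, a group of blood cancers. Mice of the water group drank regular water, and mice of the α-KG group drank water with 1% α-ketoglutarate (α-KG). Each group had 5 libraries, called water 1 to 5 and α-KG 1 to 5 here, with numbers that pair nothing. The sources used here do not give strain, genotype, age, sex or how long the mice drank α-KG, nor whether every library had a mouse of its own. The p-values therefore speak only of the spread among these 10 libraries, which may be technical.

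JmjC enzymes hold an iron atom in their catalytic domain and use oxygen and α-KG as co-substrates. Each round of demethylation turns α-KG into succinate and releases the methyl group as formaldehyde. The subfamilies differ in the lysine they act on: KDM2 enzymes on H3K36, KDM3 enzymes on H3K9, KDM4 enzymes on H3K9 and H3K36, KDM5 enzymes on H3K4 and KDM6 enzymes on H3K27. In blood formation they counter the methyltransferases that write the same marks. The measurements below are of their transcripts, not of enzyme activity or of histone methylation.

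Library totals ran from 14291364 to 22490118 estimated counts. The share of counts from protein-coding genes was lower on average in α-KG, at 46.0% ± 4.70, than in water, at 55.7% ± 10.9 (SD, n = 5). The fit with this share as a covariate called 0 of the 15126 genes, so its count of 0 members says nothing of the members. At an unadjusted p under 0.05 that fit had 3457 genes and 0 members. The markers of blood cells listed for the check of the tissue were measured in every library, with Ptprc, the gene of the pan-leukocyte protein CD45, at 131 to 297 CPM (counts scaled to 1000000 per library after TMM). Xist, expressed from the inactive X chromosome, was at 258 to 785 CPM, and the Y-linked demethylase gene Kdm5d at 4.58 to 9.504 CPM, so transcripts of both sex chromosomes were present in each library. In α-KG, 5 of 6 monocyte markers and 3 of 8 macrophage markers rose (edgeR, adjusted p under 0.05), as did 2 of 8 T and NK cell markers (Cd3e and Il2rb) and 1 of 5 stromal markers (Cxcl12). The stromal markers Col1a1 and Col1a2 went the other way, with log2 fold changes (α-KG against water) of -1.64 and -1.06. Neither was called by edgeR (adjusted p = 0.0577 and 0.116), but DESeq2 called both lower (adjusted p = 0.00232 and 0.0473). Of all genes, edgeR called 2.73% and DESeq2 10.4%. The marker lists were chosen with earlier results of these data known. The summed monocyte markers were at 196 to 261 CPM in water and 267 to 527 CPM in α-KG. α-KG 1 stood apart from the other libraries, with summed erythroid markers of 1533 CPM against 5028 to 10777 CPM elsewhere and summed B cell markers of 439 CPM against 79.8 to 169.8 CPM. In bulk samples such as these, fewer cells of a type and less RNA per cell cannot be told apart.

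None of the 10 demethylase genes differed between α-KG and water by the test across all genes. Of the 15126 genes tested, 413 were called (2.73%; edgeR quasi-likelihood test, adjusted p under 0.05), and 0 of the 10 members were among them. At an unadjusted p under 0.05, 4205 genes passed (27.8%), again with 0 members. DESeq2 called 1657 of the 15951 genes it adjusted (10.4%) and 0 members. For 855 genes (5.65%) the values of α-KG and water did not overlap, and this held for 0 of the members. Against shares of 2.73% and 5.65%, 0 of 10 is near the background. Against the 27.8% at an unadjusted p it is below the background, and that difference was not tested.

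The intervals of the differences give the range of change under the edgeR fit with TMM scaling and all 10 libraries. Intervals of other fits are not given here. Kdm4a was at -0.64 with library totals alone and at -0.57 without α-KG 5. The 95% intervals of all 10 log2 fold changes (α-KG against water) included 0, and all 10 lay inside a 2-fold change in either direction. Over the family, the lowest bound was 0.549-fold, for Kdm4a, and the highest was 1.68-fold, for Kdm6b. For 8 of the 10, the interval lay inside a 1.5-fold change. Log2 fold changes were above 0 for 4 members and below 0 for 6, with a median of -0.06, where the median of all genes tested was 0.02. Summed over the 10 members, the level was 765 ± 55.9 CPM in water and 763 ± 70.1 CPM in α-KG (SD, n = 5). Without Kdm6b, the largest term, the sums were 594 ± 50.3 CPM and 544 ± 92.6 CPM.

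**Figure D1:**
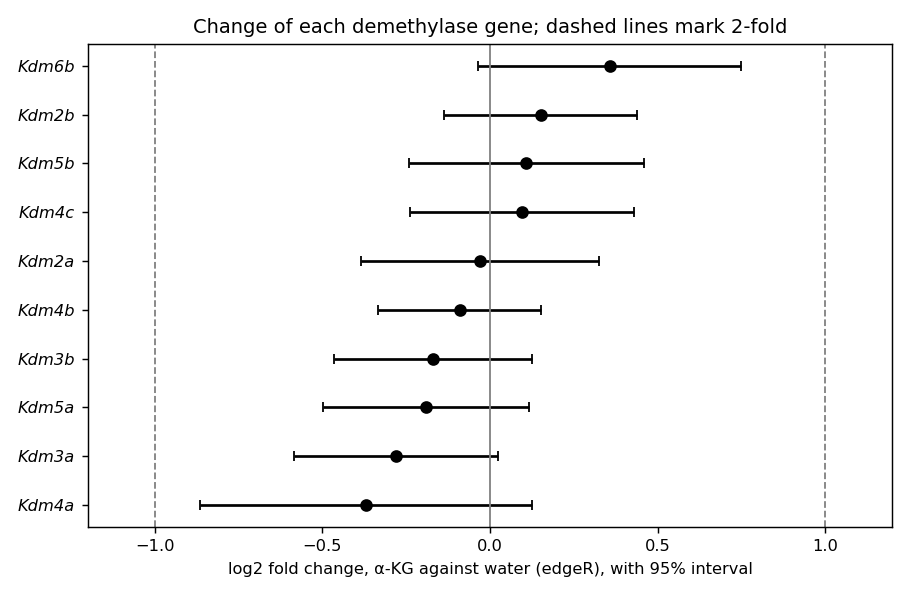
Log2 fold change of each demethylase gene in α-KG against water (points, horizontal axis) with its 95% interval from edgeR (bars), ordered by value; the solid line is no change and the dashed lines are 2-fold. Every interval crosses 0 and none reaches 2-fold, from -0.37 for Kdm4a to 0.36 for Kdm6b.

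Promoter sequence is shown for 3 members, because Kdm3a had the smallest p of the family, Kdm4a the lowest log2 fold change, and Kdm5b a log2 fold change above 0. Kdm2b and Kdm4c, at 0.15 and 0.10 against 0.11 for Kdm5b, were also above 0 and had windows, but are not printed. RefSeq (build GRCm38.p6) gave promoter windows for 5 of the 10 members. The stretches below start 250 bases before an annotated start and stop where the first annotated exon begins. They lie at chr6:71632991-71633167 on the minus strand for Kdm3a (177 bases), chr4:118180044-118180293 on the minus strand for Kdm4a (250 bases) and chr1:134559928-134560170 on the plus strand for Kdm5b (243 bases), and are written 5′ to 3′ on the strand of the gene. Capitals mark ACGTG or GCGTG, the core letters bound by hypoxia-inducible factor (HIF), whose hydroxylases also use α-KG, and CCAAT, the core of a common promoter box, each searched on both strands with overlaps allowed.
Kdm3a: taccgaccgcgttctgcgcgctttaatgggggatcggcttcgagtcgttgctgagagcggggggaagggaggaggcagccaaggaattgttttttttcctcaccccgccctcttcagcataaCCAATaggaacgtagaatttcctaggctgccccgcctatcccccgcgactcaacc
Kdm4a: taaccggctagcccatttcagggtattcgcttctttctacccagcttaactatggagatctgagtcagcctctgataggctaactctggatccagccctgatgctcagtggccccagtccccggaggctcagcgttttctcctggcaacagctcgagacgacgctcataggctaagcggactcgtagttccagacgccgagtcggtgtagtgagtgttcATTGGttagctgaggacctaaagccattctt
Kdm5b: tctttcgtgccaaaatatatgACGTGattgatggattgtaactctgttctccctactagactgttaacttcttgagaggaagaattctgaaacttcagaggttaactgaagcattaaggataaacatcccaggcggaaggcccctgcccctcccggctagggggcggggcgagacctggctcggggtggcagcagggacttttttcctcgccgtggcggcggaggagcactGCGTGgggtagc

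The printed stretches of Kdm3a and Kdm4a each held 1 CCAAT match and 0 matches to the HIF core letters, and that of Kdm5b held 2 HIF core matches and 0 CCAAT matches. Of the stretches not printed, that of Kdm2b (245 bases) held 2 HIF core matches and 1 CCAAT match. The stretch of Kdm4c (250 bases) held 0 of either. A second Kdm4c window, which reaches an annotated exon after 10 bases, held 6 HIF core matches and 0 CCAAT matches in its 250 bases. Of the 11 windows of these 5 members, some of which overlap, 7 had a HIF core match and 4 a CCAAT match. These counts were not tested against the shares over all starts. Over the 250 bases before each of the 32851 starts in the table, 38.6% had a HIF core match and 33.8% a CCAAT match, so such matches are frequent. The full 250 bases of that Kdm3a window, whose remainder lies in annotated exon and is not printed, held 1 HIF core match and 2 CCAAT matches. These are matches of letters in a window and do not show that a factor binds there.

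The H3K27 demethylase gene Kdm6b was the most abundant member and had the highest log2 fold change. KDM6B, also known as JMJD3, is induced in macrophages by inflammatory stimuli. Its gene (chromosome 11, 69398508 to 69413675, GRCm38) was at 161, 167, 223, 161 and 143 CPM in water 1 to 5. In α-KG 1 to 5 it was at 277, 164, 230.5, 220.1 and 204 CPM. Kdm6b was above the water mean in 4 of the 5 α-KG libraries, but water 3 lay among the α-KG values and α-KG 2 among the water values. The means were 171 ± 30.5 CPM and 219 ± 41.1 CPM (SD, n = 5), with a log2 fold change of 0.36 ± 0.18 SE (95% interval -0.04 to 0.75; edgeR adjusted p = 0.214). With each library left out, this log2 fold change ran from 0.25 (without α-KG 1) to 0.48 (without water 3), and Kdm6b was called in 0 of these fits. Water 3 also had the highest summed monocyte markers of the water libraries, 261 CPM, and α-KG 2 the lowest of the α-KG libraries, 267 CPM. Within α-KG the order was otherwise different: α-KG 1, the highest for Kdm6b, had a monocyte sum of 390.1 CPM, below the 508 to 527 CPM of α-KG 3, 4 and 5. The part of monocyte and macrophage RNA in the level of Kdm6b was not tested. Exons of Kdm6b share 286 bases with the antisense gene Kdm6bos, which was at a mean of 2.33 CPM in water. The strand setting of the counting is unknown here, and reads of the shared stretch cannot be told apart.

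**Figure D2:**
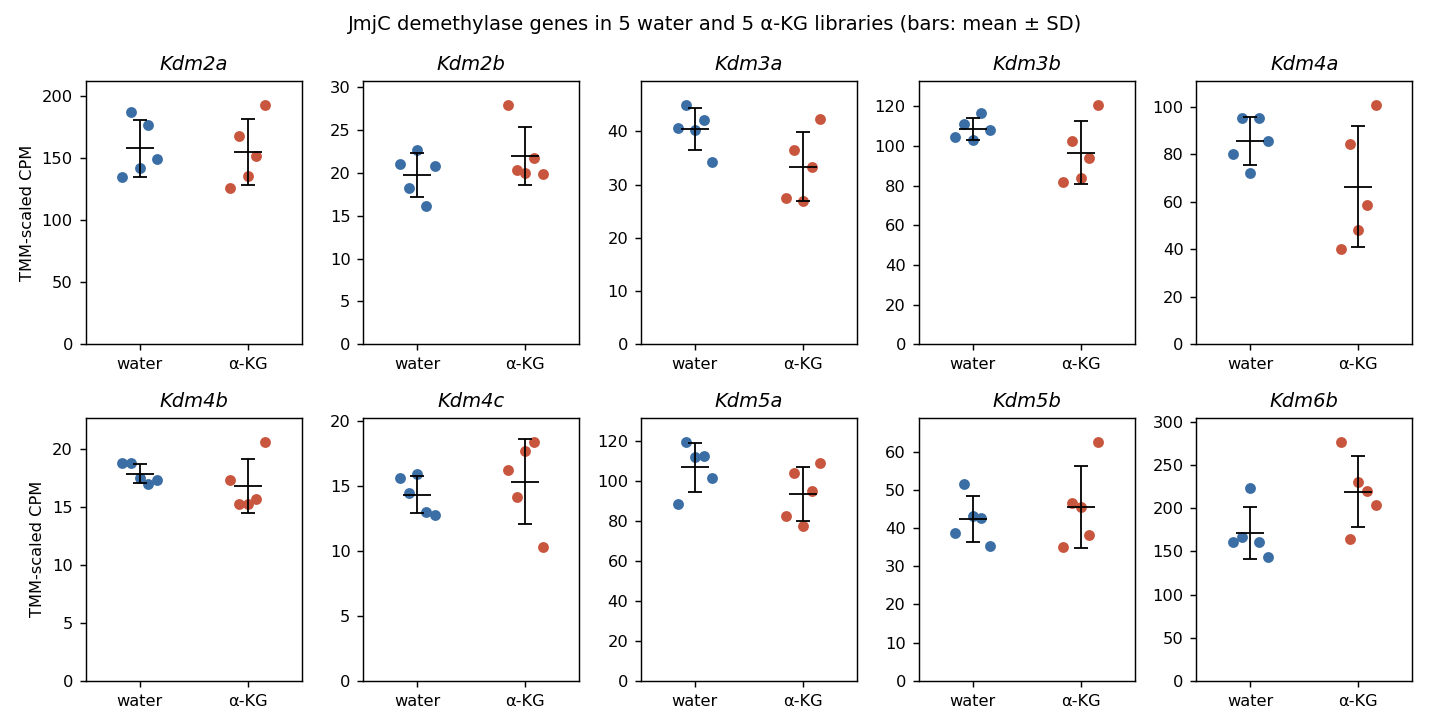
TMM-scaled CPM (vertical axes, from 0) of the 10 demethylase genes, 1 panel per gene, in 5 water (blue) and 5 α-KG (red) libraries; each point is a library and bars are the mean ± SD. Groups overlap in every panel, and for Kdm4a the α-KG libraries spread from 39.9 to 100.7 CPM against 71.9 to 95.4 CPM in water.

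Of the KDM4 genes followed here, whose enzymes act on trimethylated H3K9 and H3K36, Kdm4a had the lowest log2 fold change of the 10 members. Kdm4a (chromosome 4, 118136957 to 118180043) was at 80.1, 95.4, 71.9, 95.1 and 85.5 CPM in water 1 to 5, and at 39.9, 84.2, 48.1, 58.5 and 100.7 CPM in α-KG 1 to 5. α-KG 1, 3 and 4 lay below all water libraries, α-KG 2 lay among them and α-KG 5 above them all. The log2 fold change was -0.37 ± 0.23 SE (95% interval -0.86 to 0.13; edgeR adjusted p = 0.297), with means of 85.6 ± 10.02 CPM and 66.3 ± 25.5 CPM (SD, n = 5). Without α-KG 5 it was -0.57, and without α-KG 1 it was -0.24, so it moved by over 1.5 times with single libraries and was called in neither fit.

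The libraries low for Kdm4a were also among the lower ones for summed erythroid markers. In α-KG 1, 3 and 4, where Kdm4a was low, summed erythroid markers were at 1533, 6920 and 5485 CPM, against 8391 and 9751 CPM in α-KG 2 and α-KG 5. Among water libraries, water 3 was the lowest for Kdm4a and for the erythroid sum, 5028 CPM against 7945 to 10777 CPM in the other water libraries. Water 1, the next lowest for Kdm4a in water, had an erythroid sum of 9731 CPM, above the 7945 CPM of water 5. Slc4a1 was the largest term of the erythroid sum, at a mean of 5766 of 8828 CPM in water. Alas2 had a log2 fold change of 0.13, and the other 6 erythroid markers were below 0. All 7 erythroid markers were measured, none was at 0 in any library and 0 were called (1 at an unadjusted p under 0.05, and 0 by DESeq2). The summed cell cycle markers ran from 2972 to 3988 CPM in water, and were at 849, 3056, 1301, 2250 and 2604 CPM in α-KG 1 to 5. Mki67 was the largest term of this sum, at a mean of 2573 of 3671 CPM in water. All 10 cell cycle markers had log2 fold changes below 0, 0 were called by edgeR (10 at an unadjusted p under 0.05) and 8 were called lower by DESeq2. Beside these marker counts, 27.8% of all genes passed the unadjusted p of edgeR and 10.4% were called by DESeq2. The part of erythroid or dividing cells in the level of Kdm4a was not tested.

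The ratio of Kdm6b to Kdm4a counts needs no scaling between libraries, and this pair was chosen after its values were seen. It was 2.01, 1.75, 3.10, 1.69 and 1.68 in water 1 to 5, and 6.95, 1.95, 4.80, 3.76 and 2.03 in α-KG 1 to 5. In α-KG 1, 3 and 4 the ratio was above all water libraries, and in α-KG 2 and 5 it lay within the water range. No test was made of this ratio.

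Kdm4b and Kdm4c, the less abundant of the KDM4 genes followed here, had log2 fold changes within 0.10 of 0. Kdm4b (chromosome 17, 56326062 to 56402870) was at 18.8, 18.8, 17.5, 17.0 and 17.4 CPM in water 1 to 5, the tightest water group of the family. Its α-KG values were 17.3, 15.3, 15.2, 15.7 and 20.7 CPM, with 4 of 5 below the water mean. Its log2 fold change was -0.09 ± 0.11 SE (95% interval -0.33 to 0.15; edgeR adjusted p = 0.606). Kdm4c (chromosome 4, 74242497 to 74405860) was at 15.6, 14.4, 15.9, 12.98 and 12.8 CPM in water and at 16.2, 14.2, 17.7, 18.4 and 10.29 CPM in α-KG. α-KG 5 was the lowest of all 10 libraries for Kdm4c, whereas it was the highest for Kdm4a and Kdm4b. For Kdm4c the log2 fold change was 0.10 ± 0.15 SE (95% interval -0.24 to 0.43; edgeR adjusted p = 0.6997).

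KDM3 enzymes act on mono- and dimethylated H3K9, and both of their genes followed here had log2 fold changes below 0. Kdm3a (chromosome 6, 71588972 to 71632990), a known target of HIF, was at 40.6, 44.98, 40.3, 42.2 and 34.2 CPM in water 1 to 5. In α-KG 1 to 5 it was at 27.5, 36.6, 26.9, 33.4 and 42.4 CPM. α-KG 1, 3 and 4 lay below all water libraries, α-KG 2 lay above water 5 alone, and α-KG 5 lay among the water values. The log2 fold change was -0.28 ± 0.14 SE (95% interval -0.58 to 0.02), and its adjusted p of 0.208 was the smallest of the family (edgeR). Kdm3b (chromosome 18, 34777047 to 34838660) was at 104, 111, 103, 116 and 108 CPM in water and at 81.8, 102.7, 83.7, 93.9 and 120.7 CPM in α-KG. In 4 of the 5 α-KG libraries Kdm3b was below every water library, and in α-KG 5 it was above them all. The log2 fold change was -0.17 ± 0.14 SE (95% interval -0.47 to 0.13; edgeR adjusted p = 0.420). Kdm3b shares 3468 exon bases with the gene Gm26538 on the opposite strand. That symbol was not found among the genes of the deposited table, so its level could not be given.

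KDM5 enzymes remove methyl groups from H3K4, a mark of active promoters, and the 2 of their genes followed here had log2 fold changes of opposite sign. Kdm5a (chromosome 6, 120364124 to 120444574) was at 88.5, 119.7, 112.0, 112.4 and 101.6 CPM in water 1 to 5. Its α-KG values were 82.7, 104.1, 77.3, 95.04 and 109.1 CPM, and the groups overlapped widely, with α-KG 1 and α-KG 3 below all water libraries. The log2 fold change was -0.19 ± 0.14 SE (95% interval -0.50 to 0.12; edgeR adjusted p = 0.386). Kdm5b (chromosome 1, 134560171 to 134635285) was at 38.8, 51.5, 43.0, 42.7 and 35.3 CPM in water and at 35.2, 46.5, 45.5, 38.1 and 62.6 CPM in α-KG. Here α-KG 5 was the highest and α-KG 1 the lowest of all 10 libraries. Its log2 fold change was 0.11 ± 0.16 SE (95% interval -0.24 to 0.46; edgeR adjusted p = 0.676). Kdm5a shares 251 exon bases with the opposite-strand gene Ccdc77, which was at a mean of 24.5 CPM in water.

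KDM2 enzymes carry a zinc finger that binds unmethylated CpG islands, and KDM2B brings a variant Polycomb complex (PRC1) to them. Kdm2a (chromosome 19, 4314419 to 4398285) was at 134, 187, 142, 177 and 149 CPM in water 1 to 5 and at 126, 167, 136, 151 and 193 CPM in α-KG 1 to 5. Both groups covered much the same range, with a log2 fold change of -0.03 ± 0.16 SE (95% interval -0.39 to 0.33; edgeR adjusted p = 0.919). Kdm2b (chromosome 5, 122870665 to 122989823) was at 21.1, 18.3, 22.7, 16.2 and 20.9 CPM in water and at 28.0, 20.3, 19.95, 21.8 and 19.9 CPM in α-KG. All 5 α-KG values of Kdm2b were above the water mean of 19.8 CPM, but 4 of them were within the water range. The log2 fold change was 0.15 ± 0.13 SE (95% interval -0.14 to 0.44; edgeR adjusted p = 0.462). The estimated counts of Kdm2b and Kdm5a were not whole numbers in any of the 10 libraries, nor were those of Kdm6b in 8 libraries. Kdm2b shares 627 exon bases with the opposite-strand gene Rnf34, which was at a mean of 11.1 CPM in water. It also shares 199 with the antisense gene A930024E05Rik, at 0.50 CPM. Reads of these shared stretches cannot be told apart here.

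**Figure D3:**
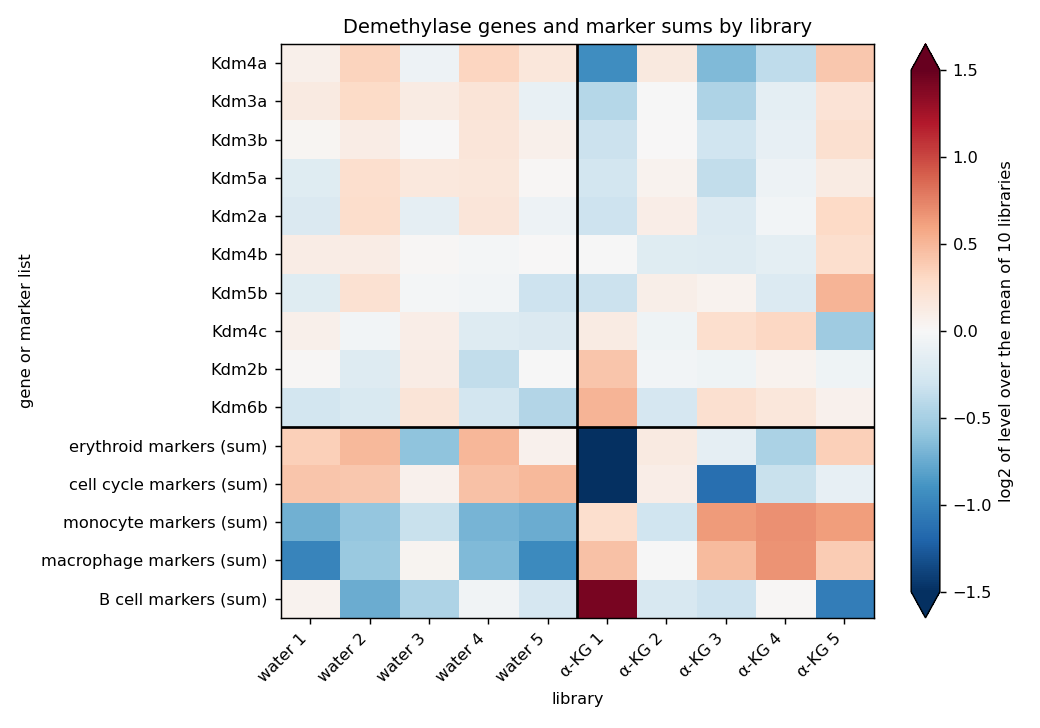
Log2 of each gene's level over its mean of the 10 libraries (colour), for the 10 demethylase genes (upper rows) and 5 marker sums (lower rows) in each library (columns); colours end at 1.5 in either direction. α-KG 1 is low for Kdm4a and for the erythroid and cell cycle sums and high for Kdm6b, Kdm2b and the B cell sum, and α-KG 5 is high for Kdm4a, Kdm5b and Kdm2a.

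α-KG 1 and α-KG 5 were often at the ends of the ranges. α-KG 5 was the highest of all 10 libraries for 5 members, namely Kdm2a, Kdm3b, Kdm4a, Kdm4b and Kdm5b. α-KG 1 was the lowest for 4 (Kdm2a, Kdm3b, Kdm4a and Kdm5b) and the highest for 2 (Kdm2b and Kdm6b). α-KG 3 was the lowest for 3 (Kdm3a, Kdm4b and Kdm5a), and water 2 the highest for 2 (Kdm3a and Kdm5a). α-KG 4 was the highest for 1 member, and α-KG 5, water 4 and water 5 were each the lowest for 1. For all 10 members the coefficient of variation was larger in α-KG than in water, with medians of 18.0% and 11.5%. Over all genes tested it was larger in α-KG for 71.6%, with medians of 24.5% and 18.1%, so most genes had this wider spread too.

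Levels were compared between members only per kilobase of annotated exons. In water, Kdm6b was the most abundant, at 24.6 ± 4.38 CPM per kilobase (SD, n = 5), and all 5 of its values were above those of the next gene. Kdm4a followed at 14.8 ± 1.73 and Kdm2a at 10.9 ± 1.58 CPM per kilobase, and the ranges of these neighbours overlapped. Kdm3b and Kdm5a, at 7.70 ± 0.387 and 7.55 ± 0.855 CPM per kilobase, did not differ beyond their spread. Kdm3a came next at 4.92 ± 0.482, then Kdm4b at 3.66 ± 0.172 CPM per kilobase, without overlap between them. At the low end, Kdm5b (2.55 ± 0.365) and Kdm4c (2.46 ± 0.248 CPM per kilobase) overlapped, and Kdm2b was the lowest at 1.82 ± 0.237 CPM per kilobase. As a share of the family's summed level per kilobase, Kdm6b made up 30.3% ± 4.23 of the water total and 38.6% ± 8.03 of the α-KG total (SD, n = 5). For Kdm4a these shares were 18.3% ± 2.20 and 13.8% ± 4.57. With the longest transcript in place of all exons, Kdm6b was still the highest and Kdm3b, Kdm5a and Kdm3a kept their places, but Kdm2a came before Kdm4a, and Kdm4c was the lowest, after Kdm5b, Kdm2b and Kdm4b.

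**Figure D4:**
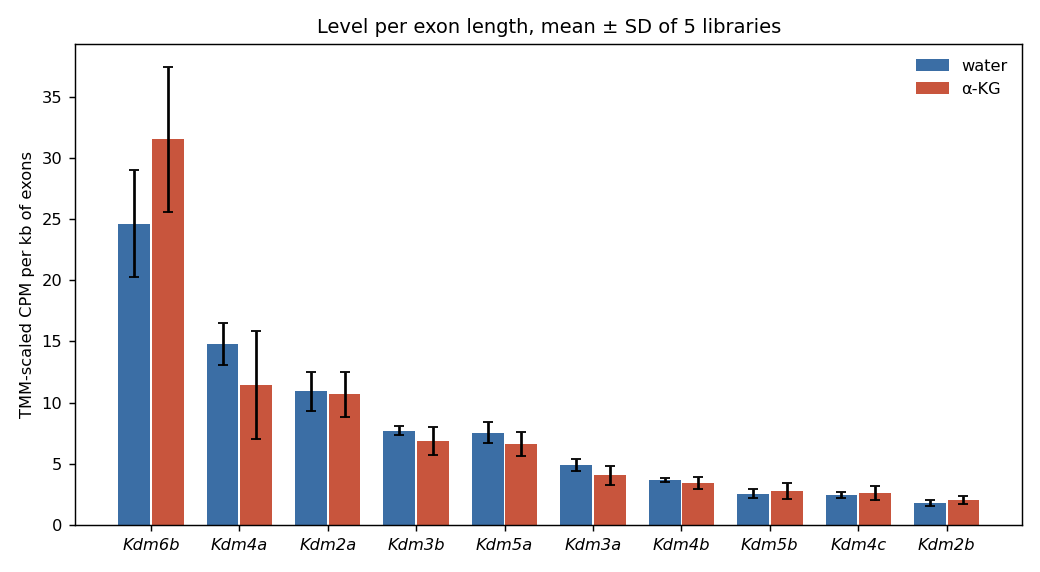
TMM-scaled CPM per kilobase of annotated exons (vertical axis, from 0) for each demethylase gene in water (blue) and α-KG (red); bars are means and error bars the SD of 5 libraries. Kdm6b is the highest in both groups, at 24.6 and 31.5 CPM per kilobase, and Kdm2b the lowest, at 1.82 and 2.02.

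The other JmjC genes showed no called change either. Of 21 measured genes of this list, which includes catalytic relatives and JmjC proteins that act on other substrates, 0 were called by edgeR (3 at an unadjusted p under 0.05) and 0 by DESeq2. The shares of all genes were 2.73% (27.8% at the unadjusted p) and 10.4%. In this list, log2 fold changes were above 0 for 9 and below 0 for 12, around a median of -0.0040. The 3 with the smallest p were Riox2, Jarid2 and Hspbap1. Riox2, a ribosomal oxygenase gene, was at 3.84 to 4.85 CPM in water and at 5.04 to 7.08 CPM in α-KG, without overlap (log2 fold change 0.47 ± 0.15 SE, edgeR adjusted p = 0.0838). It was the only 1 of the 21 without overlap, beside 5.65% of all genes tested. Jarid2, a JmjC protein without demethylase activity that joins Polycomb complex PRC2, was at 39.2 to 51.5 and 46.7 to 67.4 CPM (0.35 ± 0.13, edgeR adjusted p = 0.112). Hspbap1 was at 15.9 to 22.9 and 8.91 to 18.0 CPM (-0.46 ± 0.18, edgeR adjusted p = 0.134). Kdm6a, which encodes the X-linked H3K27 demethylase beside KDM6B, was named after its values were seen. It was at 125 to 191 CPM in water and at 52.1, 133.9, 88.4, 95.04 and 189.4 CPM in α-KG 1 to 5, low in the same 3 libraries as Kdm4a (-0.40, edgeR adjusted p = 0.371).

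Genes that write the opposing marks gave 0 calls by edgeR in each list. At an unadjusted p under 0.05 there were 3 in the H3K27 list, 2 for H3K9, 1 for H3K36 and 0 for H3K4, and DESeq2 called 2, both in the H3K27 list. Of all genes, 27.8% passed the unadjusted p of edgeR and 10.4% were called by DESeq2. The lists were not tested against these shares. For H3K27, 7 of 10 measured methyltransferase and PRC2 genes were below 0 (median -0.16). Ezh2, which encodes a catalytic subunit of PRC2, was at 71.8, 64.7, 57.9, 69.3 and 70.6 CPM in water 1 to 5 and at 37.4, 62.0, 35.4, 46.9 and 49.2 CPM in α-KG 1 to 5. Only α-KG 2 lay among the water values. Ezh2 had a log2 fold change of -0.54 ± 0.15 SE with edgeR (adjusted p = 0.0704) and -0.56 ± 0.17 SE with DESeq2 (adjusted p = 0.0190). Among other PRC2 subunit genes, Suz12 was at -0.49 with edgeR (adjusted p = 0.0920) and -0.51 with DESeq2 (adjusted p = 0.0372), and Aebp2 at 0.37 with edgeR (adjusted p = 0.104). The summed cell cycle markers given above were likewise lower in α-KG 1, 3, 4 and 5 than in every water library, and their part in Ezh2 and Suz12 was not tested. For H3K9, 4 of 6 genes were below 0 (median -0.09), and Ehmt2, Suv39h1 and Ehmt1 were at 0.40, -0.38 and 0.21 (adjusted p = 0.103, 0.108 and 0.296). Values of the H3K4 list were close to 0, with 6 of 11 genes above 0 and a median of 0.02. Dpy30, Kmt2c and Setd1a were at -0.38, -0.20 and -0.17 (adjusted p = 0.273 to 0.392). For H3K36, 4 of 6 measured genes were below 0 (median -0.11), with Nsd2, Nsd3 and Nsd1 at -0.44, -0.32 and 0.20 (adjusted p = 0.134 to 0.299), and Setmar did not pass the filter. The median of all genes tested was 0.02.

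Partner complexes gave 0 calls by both tools. Of 9 measured genes of the variant PRC1 that holds KDM2B, 6 were below 0 (median -0.07), 0 were called by edgeR (1 at an unadjusted p under 0.05) and 0 by DESeq2. Usp7, a deubiquitinase of that complex, was at 253 to 353 CPM in water and at 103 to 305 CPM in α-KG, with its lowest value in α-KG 1 (log2 fold change -0.64 ± 0.26 SE, edgeR adjusted p = 0.141). Rnf2 and Bcorl1 were at 0.26 and -0.20 (adjusted p = 0.317 and 0.446). Of 7 genes of the amine oxidase demethylases, which use flavin in place of α-KG, and their CoREST partners, 6 were below 0 (median -0.08), with 0 calls by edgeR (1 at an unadjusted p under 0.05) and 0 by DESeq2. Rcor1, Rcor2 and Hdac1 were at -0.30, 0.51 and -0.23 (adjusted p = 0.139, 0.185 and 0.234). Among all genes tested, edgeR called 2.73% (27.8% at the unadjusted p) and DESeq2 10.4%.

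**Figure D5:**
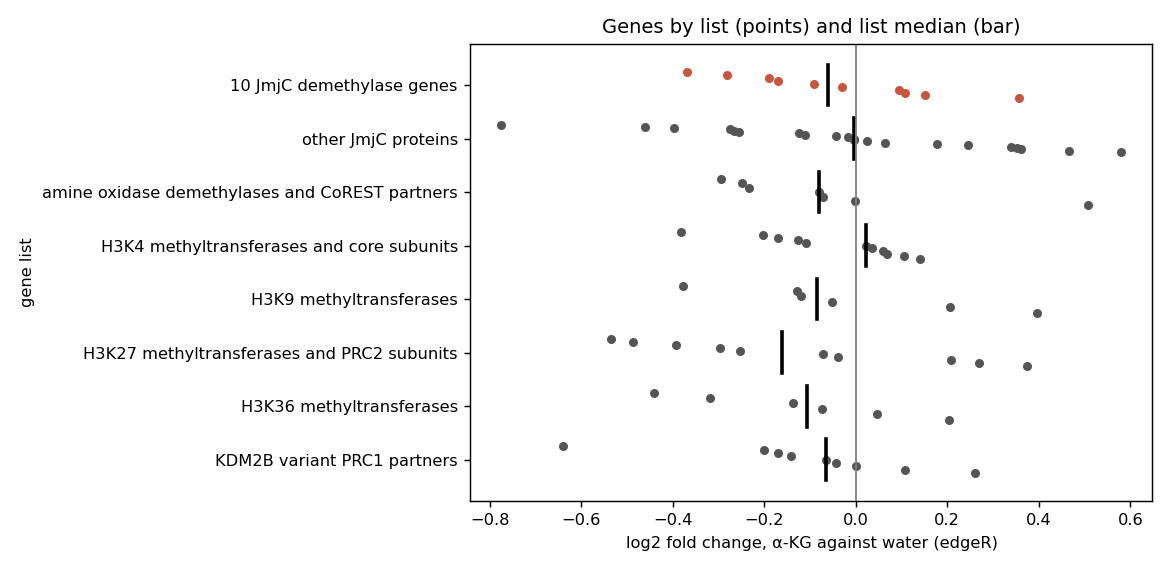
Log2 fold change in α-KG against water (horizontal axis) of each measured gene (points) of the 10 demethylase genes (red) and 7 related lists (grey); black bars are list medians. Medians lie between -0.16, for the H3K27 methyltransferase and PRC2 list, and 0.02, for the H3K4 list.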

How the data were processed

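Total RNA of mouse bone marrow cells was depleted of ribosomal RNA with RNase H and sequenced on an Illumina instrument, per the labels' protocols. The submitters' processing notes name bcl2fastq, DRAGEN and the build GRCm38, without versions or roles. The sources used here do not give the quantifier, the annotation or the strand setting. The authors deposited 1 table of estimated counts (expected counts) for 55367 genes, not scaled between libraries.

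Counts were rounded to whole numbers, and filterByExpr with a minimum count of 10 and a minimum total of 15 kept 15126 genes. All of these were fitted in 1 model with edgeR 4.0.16 in R 4.3.3 (TMM scaling, robust quasi-likelihood F test, two-sided), and p-values were adjusted over all of them by the Benjamini-Hochberg method, with a threshold of 0.05. Standard errors were derived from each log2 fold change and its F value. CPM are counts scaled to 1000000 per library after TMM. Exon lengths and positions came from GENCODE M21 on GRCm38, and promoter windows from RefSeq on GRCm38.p6. The steps were tested on simulated data. DESeq2 1.42.0, limma 3.58.1 voom, other scalings and filters, protein-coding genes only, a covariate and leaving out each library were alternatives. The members, lists and tests were chosen with earlier results of these data known. All 10 members were named, with the 3 genes of smallest unadjusted p in each related list.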

Additional observations from a re-analysis of the deposited data

Results flagged for a closer look

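Among the 20 sets of 5 values (10 members in 2 groups), 1 held a library far from the others of its group: Kdm2b was at 28.0 CPM in α-KG 1, where the other α-KG libraries were at 19.9 to 21.8 CPM. Chance alone marks about 1 in 20 such sets, so 1 of 20 is no more than chance gives. The same library had the highest summed B cell markers, 439 CPM, and their part in the level of Kdm2b was not tested. Without α-KG 1, the log2 fold change of Kdm2b was 0.04.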

How the results depend on the processing

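No paired analysis was possible because no number occurs in the titles of both groups. Across 20 alternative fits and 10 members, 0 of the 200 pairs of a member and a fit gave a call, and 191 of the 200 kept the sign. The fits share libraries, so these pairs are not independent. The lowest adjusted p was 0.0732 (Kdm6b with limma voom and quality weights). In 8 of the alternatives at least 1 member passed an unadjusted p of 0.05. With voom and quality weights 3 members passed, beside 5364 of all 15126 genes. There were 2 with library totals alone (3336 of 15126 genes) and 2 without α-KG 5 (4715 of 15506 genes). In each of the rest it was 1 member, beside 3414 to 5499 genes of 11903 to 15521. These counts were not tested against the shares over all genes. Kdm3a, Kdm3b, Kdm4a, Kdm4b, Kdm5a and Kdm6b kept their sign in all 20. Scaling by library totals alone moved the median of all genes to -0.22, and there Kdm2b, Kdm4c and Kdm5b stood at -0.063, -0.16 and -0.16, above that median. Kdm2a was at 0.017 with upper quartile scaling. With each library left out, Kdm2a ran from -0.12 to 0.036 and Kdm5b from -0.034 to 0.19.

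The number of calls over all genes moved with the processing, and the cause was not tested. As 5 of the 20 alternatives called 0 genes in all, the members' count of 0 there says nothing of its stability. With edgeR and TMM, 361 genes were called higher and 52 lower. DESeq2 called 1657 (969 higher, 688 lower), library totals alone 1159 (117 and 1042), limma voom 267 (225 higher), and voom with quality weights 2390 (1401 and 989). With the protein-coding share as a covariate it was 0 in each direction, with 3457 genes at an unadjusted p under 0.05. Lower calls numbered 100 with upper quartile scaling, 154 with no filter and 90 with protein-coding genes only. With each library left out, 0 to 2683 genes were called, 0 to 1610 higher and 0 to 1073 lower. Each of the 10 libraries, left out, moved the count by over 1.5 times. It was 0 on removing α-KG 4 or any of water 1, 2 and 4 (3232 to 3672 genes at an unadjusted p under 0.05), and 2683 on removing α-KG 2.

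With the longest transcript as the length, levels per kilobase over all 10 libraries were 18.2 for Kdm2a, 4.04 for Kdm2b, 7.60 for Kdm3a, 16.1 for Kdm3b, 3.54 for Kdm4c, 9.16 for Kdm5a and 5.04 for Kdm5b, each higher than with all exons, since that length is shorter. Members had 143 to 7128 counts in a library, and how much of their spread is counting error was not tested.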
